A study of Mus musculus with 12 samples.

Results

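The proteasome subunits of mouse hepatocytes were taken as every row of the deposited gene table whose symbol is Psma, Psmb, Psmc or Psmd followed by a number, leaving out the inducible subunits Psmb8, Psmb9 and Psmb10. This rule used names alone and found 37 of the 37991 rows, which carry 36 distinct symbols. Of these, 16 rows are core subunits (Psma, Psmb) and 21 carry regulatory symbols (Psmc, Psmd). The regulatory symbols include 3 assembly chaperones, Psmd5, Psmd9 and Psmd10, and Psmd14 is listed under 2 gene models. The 12 RNA-seq libraries of primary hepatocytes formed 4 groups of 3.

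All groups came from male mice, 10 weeks old, in which both REV-ERB genes, Nr1d1 and Nr1d2, were floxed. The REV-ERBs are transcriptional repressors of the nuclear receptor family and part of the circadian clock. Mice had been injected 2 weeks before with an AAV8 virus whose TBG promoter, active in hepatocytes, drove Cre-GFP (KO-labelled) or GFP alone (control). Cells were released with collagenase, plated on collagen, and given DMSO or 10 µM SR9009, a compound described as a REV-ERB agonist, for 8 h. No group had Cre without floxed alleles, so an effect of Cre and loss of the REV-ERBs cannot be told apart. Nothing in the labels says whether replicates were separate mice or separate plates, and the spread behind each p-value may therefore be technical.

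The proteasome degrades proteins that carry ubiquitin. Its core particle is a barrel: outer rings of α subunits (Psma) gate the entry, and inner rings of β subunits (Psmb) hold the proteolytic sites. The regulatory particle caps the barrel, with a ring of ATPases (Psmc) that unfolds the substrate and non-ATPase subunits (Psmd) that bind ubiquitin, remove it and hold the particle together. Subunits are needed in fixed proportion, and their genes are known to be transcribed together under NRF1 (Nfe2l1) when proteasome activity is short.

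Proteasome subunit genes were transcribed at high levels in every library. The deposited values were taken as FPKM, a unit that corrects for library size and transcript length, so levels of different genes can be set side by side. The 34 members that passed the filter (at least 1 FPKM in at least 3 libraries) had a median level of 72.3 FPKM, against 9.01 FPKM for the 11213 genes tested. All 34 lay above that all-gene median, from the percentile 59.1 of Psmd9 to the percentile 97.7 of Psmd8. The lowest value of any of them in any library was 10.1 FPKM (Psmd9), so the filter did not depend on the group.

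**Figure D1:**
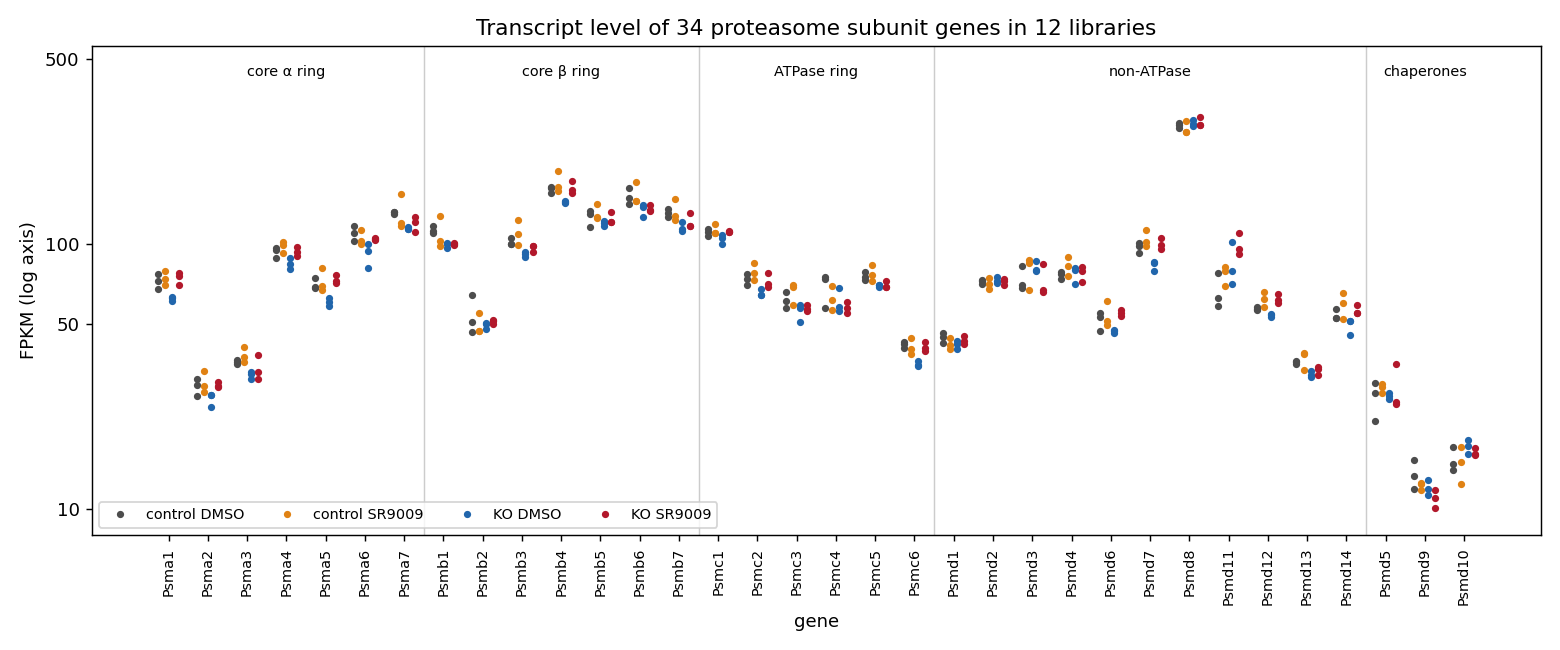
Level of each of the 34 members tested, in FPKM on a log axis, with 1 point per library coloured by group and genes ordered by subcomplex. Psmd8 stands highest, with a mean of 282.3 FPKM, and the chaperones Psmd9, Psmd10 and Psmd5 stand lowest.

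Levels differed between genes far more than between groups. The α ring had a median of 71.0 FPKM, from Psma2 at 28.7 to Psma7 at 124.3. The β ring stood higher, with a median of 125.6 FPKM, from Psmb2 at 51.0 to Psmb4 at 159.6. The ATPase ring had a median of 67.5 FPKM and the narrowest range of the 4 subunit classes, with Psmc1, at 110.0, 2.76 times Psmc6 at 39.8. Non-ATPase subunits had a median of 72.1 FPKM and ran from Psmd13 at 34.7 to Psmd8 at 282.3, an 8.14-fold range. The 3 chaperones, which help assemble the ATPase ring and are not part of the finished particle, had a median of 16.0 FPKM.

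Psmd8 was the highest member in all 12 libraries. Psmd8, a subunit of the lid of the regulatory particle (mm9, chromosome 7, 29959207 to 29965692), had 286.7, 282.6 and 274.7 FPKM in control DMSO, 266.1, 265.4 and 292.1 in control SR9009, 283.2, 294.0 and 278.2 in KO-labelled DMSO, and 301.6, 282.2 and 280.9 in KO-labelled SR9009. Its groups overlapped in all comparisons. Psma7, the highest α subunit (chromosome 2, 179771078 to 179777138), had 130.3, 132.8 and 132.5 FPKM in control DMSO and 115.8, 114.1 and 114.4 in KO-labelled DMSO, with 117.2, 120.6 and 154.8 in control SR9009 and 127.1, 121.2 and 111.1 in KO-labelled SR9009. Its DMSO groups did not overlap, but the difference missed the threshold (adjusted p = 0.145, limma).

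The other extremes are given by group. Psma2 (chromosome 13, 14705521 to 14719674) had 31.1, 29.4 and 26.8 FPKM in control DMSO, 27.8, 29.3 and 33.2 in control SR9009, 24.4, 26.9 and 27.0 in KO-labelled DMSO, and 30.2, 29.3 and 29.0 in KO-labelled SR9009. Psmb4, a β subunit without a proteolytic site (chromosome 3, 94688015 to 94690883), had 163.2, 164.1 and 155.8 FPKM, then 158.4, 164.9 and 188.1, then 142.7, 143.7 and 145.4, then 173.2, 156.2 and 159.6, in the same order of groups. All 3 KO-labelled DMSO libraries of Psmb4 lay below the other 9. Psmb2 (chromosome 4, 126354874 to 126386958) ran from 46.5 to 64.4 FPKM, and its groups overlapped. Psmc1 (chromosome 12, 101348396 to 101361574) ran from 100.5 to 119.1 FPKM, and Psmd13 (chromosome 7, 148067867 to 148084542) from 31.6 to 38.9. Psmd9 (chromosome 5, 123678199 to 123700140) ran from 10.1 to 15.4 FPKM and Psmd5 (chromosome 2, 34707608 to 34726459) from 21.6 to 35.2.

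The 3 rows that did not pass the filter were at or near 0. Psma8, an α subunit known from testis, had 0.118 to 1.53 FPKM. Psmb11, the β subunit known from the thymus cortex, had 0 to 0.0204 FPKM. The second Psmd14 model, which lies inside the first, had 0.0239 to 0.679 FPKM, so nearly all the Psmd14 signal was in the first model, with 45.6 to 65.5 FPKM.

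As background to all comparisons, library sums ran from 538521 to 604449 FPKM, and the step between low values put relative depth at 55.7% of the deepest library in control SR9009 library 1 and 63.6% in KO-labelled DMSO library 1, with the others at 77.3% or more. Hepatocyte markers summed to between 33707.4 and 41097.4 FPKM per library, led by Alb, as the label says. This sum is mostly Alb. With SR9009, 4 of the 10 hepatocyte markers fell in each genotype and none rose, where 4.55% (control) and 4.56% (KO-labelled) of all genes fell. Among them was Hnf4a, from 253.7 to 193.3 FPKM in control and from 226.1 to 149.7 in KO-labelled cells. In KO-labelled against control DMSO, 4 of the 10 rose (Apoa1, Serpina1a, Trf and Ttr) and 1, Fgb, fell. Of all genes, 11.7% rose and 8.32% fell in that comparison. Markers of leukocytes other than Kupffer cells summed to 1.01 FPKM at most, with Cd3e, Cd79a, Nkg7, S100a8 and Ly6c2 among those below 0.1 on average. Kupffer cell markers summed to 47.8 to 59.7 FPKM in control DMSO, beside a range of 34.7 to 46.1 in KO-labelled DMSO (4 of 8 tested fell and 1, Cd68, rose). Cd68 was then left out because it moved the other way, a choice made with its values known that widens the gap by construction. Without Cd68 the sum was 30.6 to 39.8 FPKM in control DMSO, and KO-labelled DMSO had 14.1 to 19.6. Marco alone went from a mean of 9.52 to 1.66 FPKM. Endothelial markers summed to 7.04 to 8.02 FPKM in control DMSO, beside a range of 11.0 to 16.1 in KO-labelled DMSO (3 of 4 tested rose). Of the cholangiocyte markers, Sox9 rose from 2.67 to 9.09 FPKM in KO-labelled DMSO and Spp1 fell from 39.9 to 24.4. The part of these markers in the differences below was not tested. In bulk samples, fewer cells of a type and less RNA per cell cannot be told apart. Nr1d1 had 18.3, 18.3 and 19.0 FPKM in control DMSO and 17.4, 17.5 and 18.3 in KO-labelled DMSO, and Nr1d2 had 13.9, 14.7 and 17.4 against 16.3, 16.2 and 16.1. Neither differed past the threshold (adjusted p = 0.492 and 0.633, limma). Under SR9009, Nr1d1 was higher in KO-labelled cells, with 22.5, 21.5 and 22.2 FPKM against 20.1, 19.0 and 19.4 (log2 difference 0.17, limma adjusted p = 0.0429, lost in 5 of 6 removals of 1 library), and it rose with SR9009 in KO-labelled cells (0.30, adjusted p = 0.00472). Neither gene was lower past the threshold in KO-labelled cells. A value for a whole gene model checks neither the deletion nor the labels, so directions below are those of libraries labelled KO.

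Promoter sequences are shown for 4 of the 6 members that passed a test below and for 2 catalytic subunits, from RefSeq (build GRCm38.p6, not the mm9 build of the deposited table), as the 250 bases before the annotated start. Capitals mark matches to TGACNNNGC, the core of the antioxidant response element that NRF1 and NRF2 bind, or to CCAAT, the NF-Y box. AGGTCA, a motif that nuclear receptors recognise, was also searched, and it has no match in these 6 stretches. Psma6, which also passed, is not shown because RefSeq gives it 2 windows, and AGGTCA occurs before the start in both of them. Each motif was read on both strands, and AGGTCA read on the other strand can overlap TGACNNNGC.
Psma1, chr7:114276117-114276366, minus strand: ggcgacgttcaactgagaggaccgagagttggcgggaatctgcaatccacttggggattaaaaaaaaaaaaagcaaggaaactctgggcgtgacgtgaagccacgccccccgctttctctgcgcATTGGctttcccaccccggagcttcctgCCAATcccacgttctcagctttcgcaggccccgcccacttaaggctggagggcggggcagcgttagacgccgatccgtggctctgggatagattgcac
Psma5, chr3:108256676-108256925, plus strand: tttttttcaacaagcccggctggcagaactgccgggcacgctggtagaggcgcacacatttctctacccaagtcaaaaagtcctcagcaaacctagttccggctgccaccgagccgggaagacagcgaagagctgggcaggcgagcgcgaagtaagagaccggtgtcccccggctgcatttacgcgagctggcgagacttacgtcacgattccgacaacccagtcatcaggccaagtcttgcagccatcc
Psmc6, chr14:45329574-45329823, plus strand: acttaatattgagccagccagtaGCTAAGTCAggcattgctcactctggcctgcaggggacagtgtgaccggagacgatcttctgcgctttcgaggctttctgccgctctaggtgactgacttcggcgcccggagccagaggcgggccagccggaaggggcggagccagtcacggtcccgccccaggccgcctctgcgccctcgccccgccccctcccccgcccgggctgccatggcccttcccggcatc
Psmd12, chr11:107479278-107479527, plus strand: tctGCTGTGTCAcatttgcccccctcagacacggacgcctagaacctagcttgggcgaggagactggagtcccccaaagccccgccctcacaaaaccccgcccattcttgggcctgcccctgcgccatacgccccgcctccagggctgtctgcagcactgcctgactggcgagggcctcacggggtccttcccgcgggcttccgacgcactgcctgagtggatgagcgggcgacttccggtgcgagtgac
Psmb5, chr14:54617996-54618245, minus strand: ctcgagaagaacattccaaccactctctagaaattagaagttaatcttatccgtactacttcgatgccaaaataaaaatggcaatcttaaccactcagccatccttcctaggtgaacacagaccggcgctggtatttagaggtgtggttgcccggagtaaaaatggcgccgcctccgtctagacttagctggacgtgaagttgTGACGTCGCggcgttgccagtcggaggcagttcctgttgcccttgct
Psmb6, chr11:70525107-70525356, plus strand: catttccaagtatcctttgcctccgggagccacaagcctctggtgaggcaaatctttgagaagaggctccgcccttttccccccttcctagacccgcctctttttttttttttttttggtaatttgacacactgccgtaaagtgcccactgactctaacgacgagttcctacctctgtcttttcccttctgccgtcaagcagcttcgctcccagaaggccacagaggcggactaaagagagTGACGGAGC

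Psma1 held 2 CCAAT matches, Psma5 none of the 3 motifs, and the other 4 stretches held 1 TGACNNNGC match each. That match began 47 bases before the start in Psmb5 and 9 bases before it in Psmb6, and lay more than 200 bases away in Psmc6 and Psmd12. Windows from 250 bases before to 50 after the start were found for 29 of the 36 symbols, 31 windows in all. No window was found for the other 7, among them Psmd7 and Psmb7. TGACNNNGC was in 5 of the 31 windows (16.1%) and in 12.4% of all 32851 windows. CCAAT was in 12 (38.7%) against 37.4%, and AGGTCA in 9 (29.0%) against 16.3%. A match is a description of letters, not of binding.

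The first comparison set KO-labelled against control cells in DMSO. No subunit rose and 5 of 34 fell: Psma1, Psma5 and Psma6 of the α ring, the ATPase Psmc6 and the lid subunit Psmd7, by 14.0% to 16.4%. Over all genes tested, 8.32% fell and 11.7% rose, 20.0% in all (limma on log2(FPKM + 1), Benjamini-Hochberg adjusted p under 0.05), so the share of members called lower, 5 of 34, is to be read against 8.32%. The estimates leaned to one side: 27 of 34 were negative, against 43.7% of all genes, with a median log2 difference of -0.15 against 0.04. In 18 members all KO-labelled libraries lay below all control libraries, and in none above, where 17.5% of all genes lay entirely below and 23.7% entirely above. Library sums were lower too, 538521 to 549272 FPKM in KO-labelled DMSO against 561475 to 575588 in control DMSO. As a share of summed FPKM the members overlapped, with 0.473%, 0.467% and 0.482% in KO-labelled DMSO against 0.501%, 0.497% and 0.468% in control DMSO. An unadjusted p under 0.05 was reached by 15 members (14 lower), against 32.5% of all genes.

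**Figure D2:**
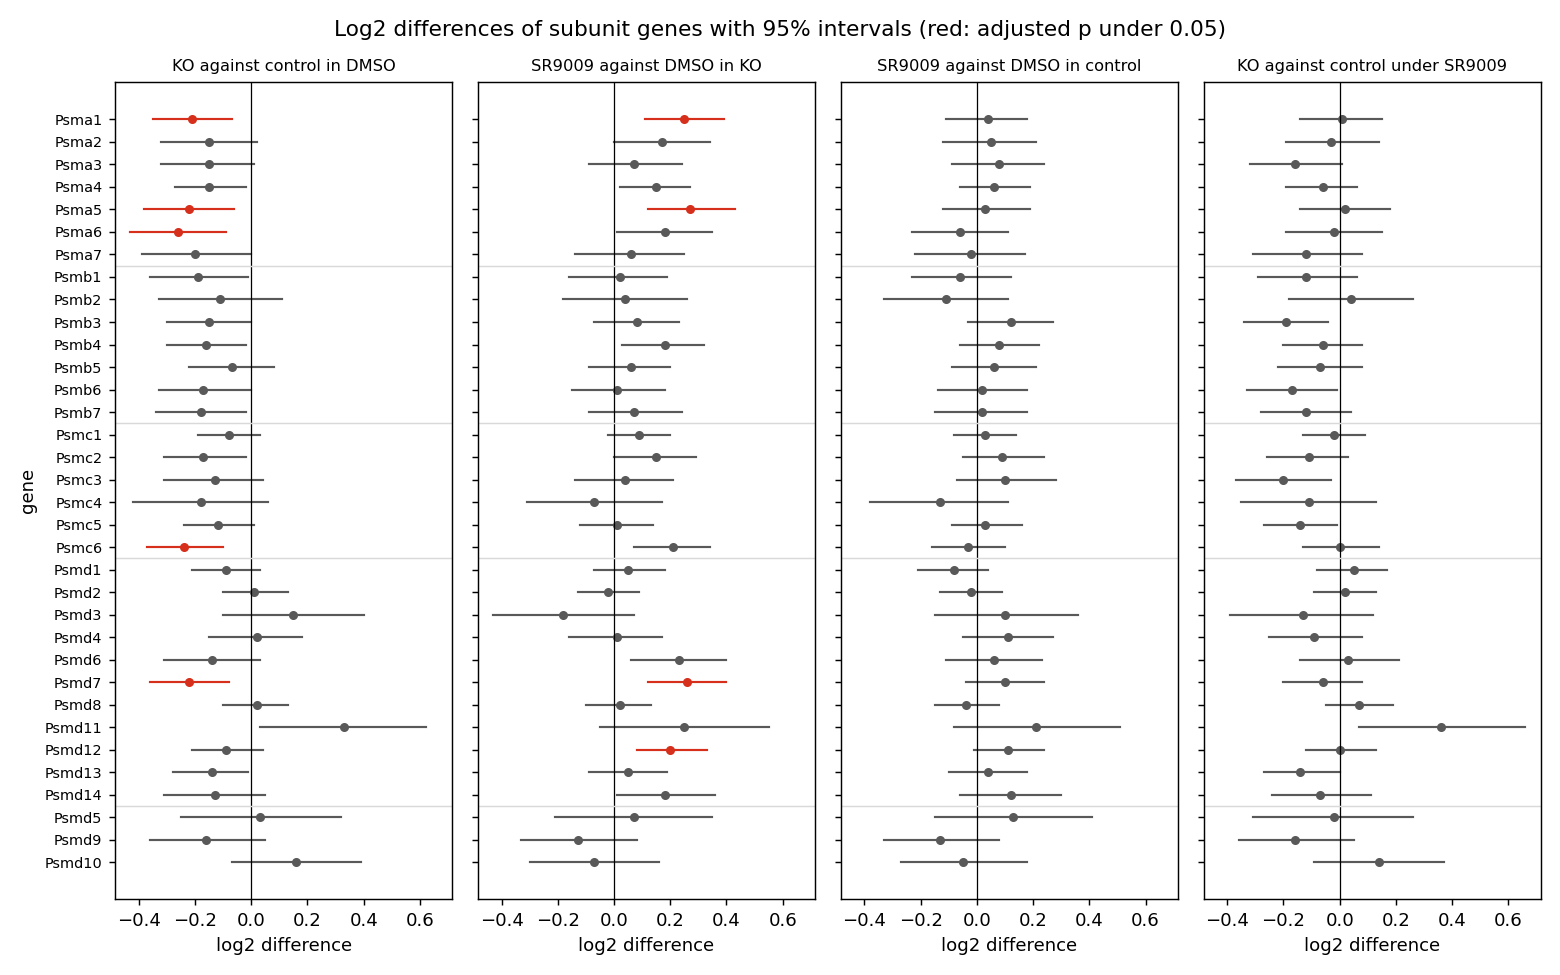
Log2 difference of each member tested, with its 95% interval, in a panel for each of 4 comparisons; red marks an adjusted p under 0.05. In DMSO the KO-labelled libraries give 27 negative estimates of 34, and SR9009 in KO-labelled cells gives 29 positive ones.

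In the α ring, 3 of 7 tested members fell and the median log2 difference was -0.20. Psma1 (chromosome 7, 121408120 to 121419632) had 77.5, 72.4 and 67.8 FPKM in control DMSO and 62.7, 61.3 and 63.2 in KO-labelled DMSO. The groups did not overlap, and the KO-labelled libraries lay within 2 FPKM of each other. Psma1 went from 72.6 ± 4.83 to 62.4 ± 0.967 FPKM (SD, n = 3), a log2 difference of -0.21 (SE 0.06, limma adjusted p = 0.0374).

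Psma5 (chromosome 3, 108059844 to 108082892) had 69.2, 74.8 and 68.4 FPKM in control DMSO and 62.7, 58.7 and 60.6 in KO-labelled DMSO. All 3 KO-labelled values were lower, and the log2 difference of -0.22 (SE 0.07) sat at the threshold (limma adjusted p = 0.0499). Psma6 (chromosome 12, 56485209 to 56519441) had 110.5, 117.0 and 102.6 FPKM against 81.5, 94.2 and 100.4. Its groups came within 3 FPKM of each other, with KO-labelled library 1 the lowest, and the log2 difference was -0.26 (SE 0.08, limma adjusted p = 0.0353). The 4 α subunits that did not pass, Psma2, Psma3, Psma4 and Psma7, had log2 differences of -0.20 to -0.15.

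In the β ring, 0 of 7 tested members passed (limma), although 5 had an unadjusted p under 0.05, and all 7 estimates were negative, with a median of -0.16. Psmb5, the chymotrypsin-like subunit (chromosome 14, 55232644 to 55236851), had 133.1, 130.2 and 115.7 FPKM in control DMSO and 120.1, 122.7 and 117.4 in KO-labelled DMSO. These overlapped, and the log2 difference was -0.07 (95% interval -0.22 to 0.08). Psmb6, the caspase-like subunit (chromosome 11, 70338869 to 70341360), had 149.7, 163.3 and 142.3 FPKM against 127.0, 138.0 and 140.1. The groups did not overlap, but the log2 difference of -0.17 missed the threshold (limma adjusted p = 0.141). Psmb7, the trypsin-like subunit (chromosome 2, 38443556 to 38499607), had 131.7, 136.0 and 126.2 FPKM against 112.1, 114.5 and 121.0. It too was separated without passing (log2 difference -0.18, limma adjusted p = 0.115).

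In the ATPase ring, 1 of 6 members fell and all 6 estimates were negative, with a median of -0.15. Psmc6 (chromosome 14, 45949504 to 45969367) had 42.6, 40.7 and 42.2 FPKM in control DMSO and 34.8, 35.1 and 36.2 in KO-labelled DMSO. The gap between the groups was wider than the spread within either. Psmc6 went from 41.9 ± 1.01 to 35.4 ± 0.745 FPKM (SD, n = 3), a log2 difference of -0.24 (SE 0.06), and had the lowest adjusted p of the members, 0.0166 (limma).

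Non-ATPase subunits were mixed: 1 of 11 tested fell, 6 estimates were negative and 5 positive. Psmd7, the partner of the deubiquitinase Psmd14 (chromosome 8, 110104281 to 110112382), had 98.3, 100.9 and 92.5 FPKM in control DMSO and 79.5, 86.0 and 84.6 in KO-labelled DMSO. The groups were apart by over 6 FPKM, and the log2 difference was -0.22 (SE 0.06, limma adjusted p = 0.0309). The lid subunit Psmd11 (chromosome 11, 80242117 to 80286750) lay the other way, with 62.7, 78.0 and 58.7 FPKM against 70.9, 79.0 and 101.8. Its groups overlapped, KO-labelled library 3 was far above the rest, and the log2 difference of 0.33 did not pass (limma adjusted p = 0.12). Psmd2, a scaffold to which ubiquitin shuttles dock, and Psmd4, a ubiquitin receptor, had log2 differences of 0.01 and 0.02. Of the 3 chaperones none passed, with log2 differences of -0.16 to 0.16.

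Over all genes tested, 933 were lower with all 12 libraries, and 698 to 763 with 1 library of the groups compared left out. The count of 5 members fell as well when 1 library was left out. It was 0 without control DMSO library 1 or without KO-labelled DMSO library 1, 1 without control DMSO library 2 or KO-labelled DMSO library 2, 2 without KO-labelled DMSO library 3 and 3 without control DMSO library 3, while the median log2 difference stayed between -0.17 and -0.12. The count was 1 after rescaling to TPM, without the filter, without trend and robust variance in limma or without the 2 shallowest libraries, and 9 when only the groups compared were fitted. Those 9 kept 4 of the 5, without Psma6, and included Psmb1, Psmb3, Psmb4 and Psmb7 of the β ring. Quantile scaling also gave 5, with Psmb4 and Psmb7 and without Psma1 and Psma5. Which rings held members that passed thus depended on the setting.

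**Figure D3:**
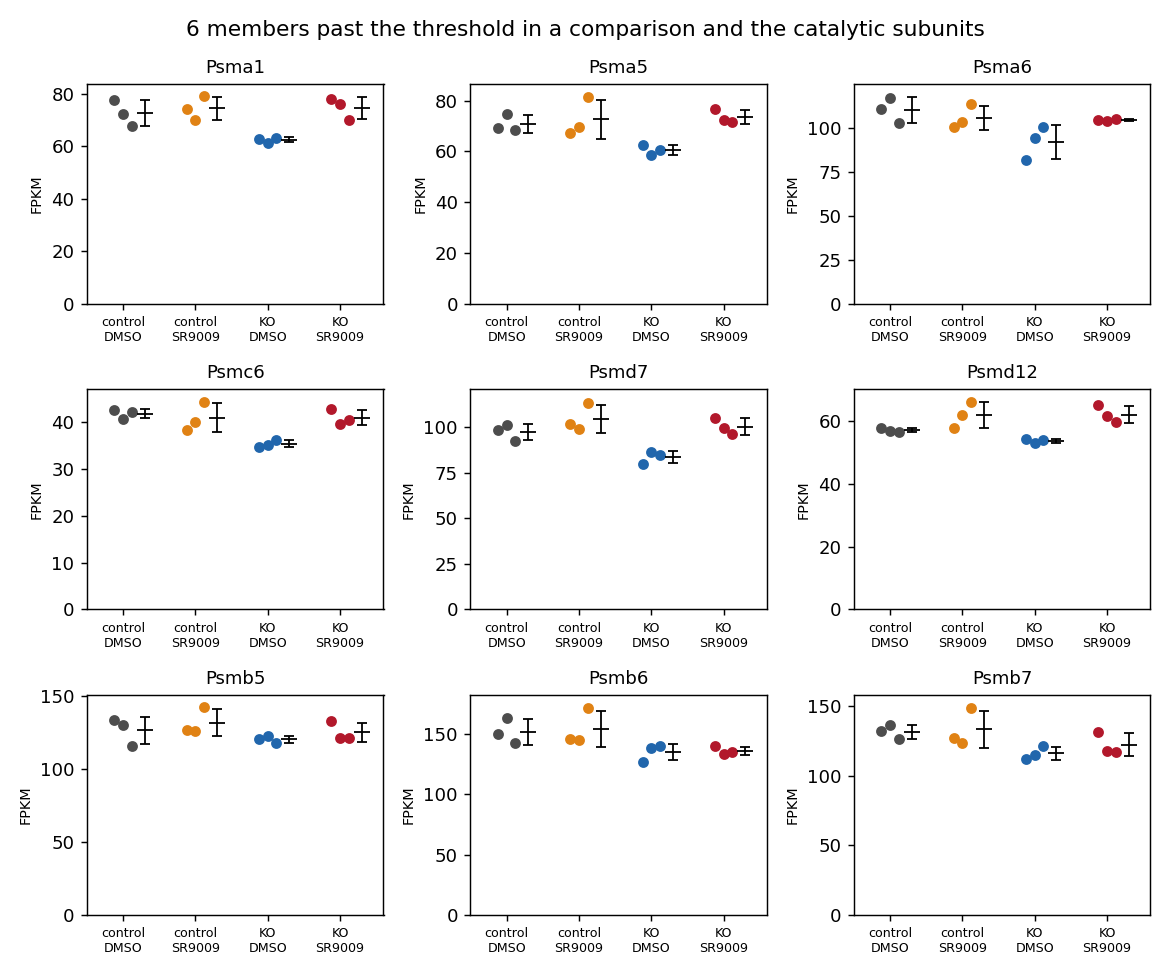
Level in FPKM by group, with 1 point per library and the group mean, for the 6 members past the threshold in a comparison and for the catalytic subunits Psmb5, Psmb6 and Psmb7. Psma1, Psma5, Psmc6 and Psmd7 are lowest in KO-labelled DMSO, where every library lies below every library of the other 3 groups.

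Levels were also summed over the core and over the regulatory particle. The summed core level was 1403, 1427 and 1323 FPKM in control DMSO and 1208, 1225 and 1253 in KO-labelled DMSO. The groups did not overlap. The summed regulatory level, without the chaperones, was 1351, 1385 and 1296 FPKM against 1284, 1286 and 1331, which overlapped. The ratio of core to regulatory sums was 1.04, 1.03 and 1.02 in control DMSO and 0.941, 0.953 and 0.942 in KO-labelled DMSO. Under SR9009 the ratio was 0.99, 0.994 and 1.07 in control and 0.97, 0.966 and 0.964 in KO-labelled cells, so all 6 control libraries lay above all 6 KO-labelled ones. The regulatory sum holds Psmd8, with a mean of 282.3 FPKM, and Psmd11, which leaned the other way from most members. Psmd11 had means of 66.5 and 76.8 FPKM in control DMSO and control SR9009, and 83.9 and 99.1 in KO-labelled DMSO and KO-labelled SR9009. A higher Psmd11 lowers the ratio. It had 69.4 FPKM in control SR9009 library 1 and 110.1 in KO-labelled SR9009 library 2. With Psmd11 taken out of the regulatory sums, the ratio of this KO-labelled library lies above that of this control library. The separation under SR9009 therefore depends on Psmd11, while the DMSO groups stay apart without it. These sums are descriptions and were not tested.

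**Figure D4:**
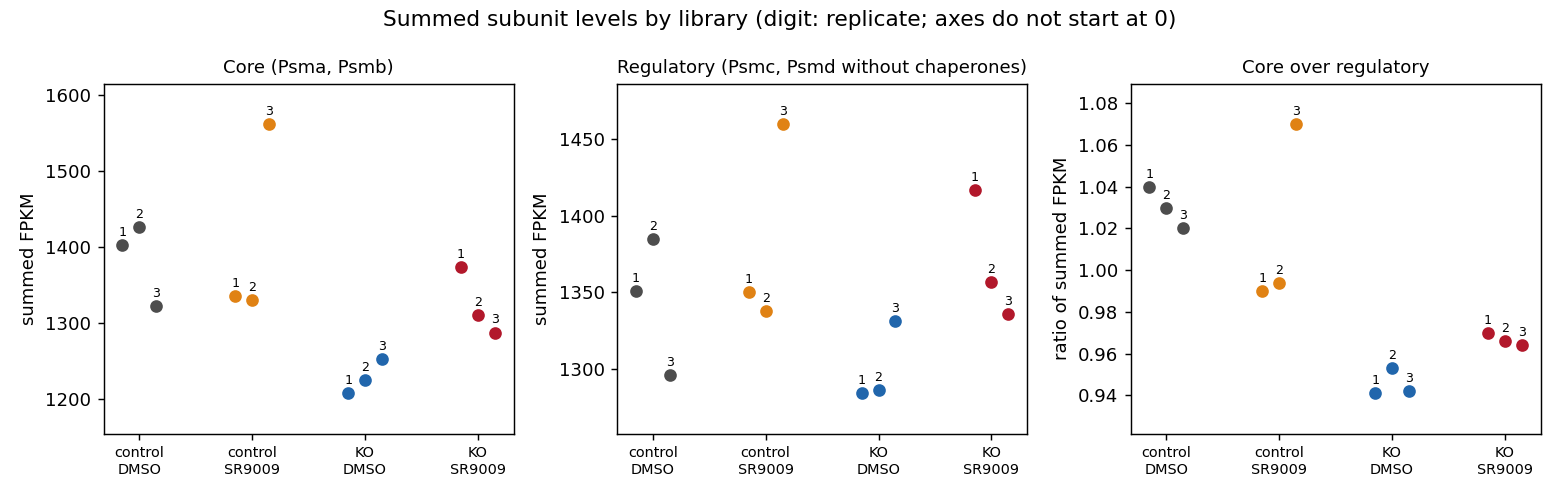
Summed FPKM of the core subunits and of the regulatory subunits, and the ratio of these sums, per library, by group. The axes do not start at 0 and digits are replicate numbers. The ratio is 0.941 to 0.97 in KO-labelled libraries and 0.99 to 1.07 in control libraries. Under SR9009 this separation depends on Psmd11.

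Control SR9009 library 3 held the highest value of 21 of the 34 members, where 11.0% of all genes tested were highest in it. Its core sum was 1562 FPKM, beside 1336 and 1331 in the other control SR9009 libraries. This library also had the highest sum over all genes and held the lowest value of 22.0% of them, and as a share of summed FPKM its members, at 0.51%, were close to those of KO-labelled SR9009 library 1, at 0.512%. The lowest values were shared by KO-labelled DMSO libraries 1 and 2, with 10 members each, and none was lowest in KO-labelled DMSO library 3.

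In control cells, SR9009 was not followed by a detectable change in any subunit. None of the 34 members passed, and none had an unadjusted p under 0.05 (limma), where 8.24% of all genes passed, 3.69% higher and 4.55% lower. Among all genes, 21.6% reached an unadjusted p under 0.05. The groups of 1 member, Psmd12, did not overlap, against 25.0% of all genes. The median log2 difference was 0.04, against -0.02 for all genes, and the members ran from -0.13 to 0.21. The catalytic subunits had 126.8, 125.6 and 142.2 FPKM (Psmb5), 145.6, 145.3 and 171.7 (Psmb6) and 127.3, 123.4 and 148.7 (Psmb7) in control SR9009, in each case with library 3 the highest. For Psma1 the 95% interval of the log2 difference was -0.11 to 0.18. With control SR9009 library 3 left out, Psmb1 passed as lower and the median of the members was -0.01.

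In KO-labelled cells, 4 of 34 subunits rose with SR9009 and none fell: Psma1, Psma5, Psmd7 and Psmd12, by 15.5% to 21.2%. Over all genes 9.87% passed, 5.32% higher and 4.56% lower. The median log2 difference was 0.07 against 0.00, and 29 of 34 estimates were positive, against 50.9% of all genes. In 14 members every SR9009 library lay above every DMSO library, against 16.9% of all genes, and in none below, against 15.4%. An unadjusted p under 0.05 was reached by 12 members, all higher, against 22.9% of all genes. This comparison shares the KO-labelled DMSO libraries with the first one, so low values in them lower one difference and raise the other, and the values of both are given side by side without a test between them.

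Psma1 had 78.0, 75.9 and 70.0 FPKM in KO-labelled SR9009, beside the 61.3 to 63.2 FPKM in KO-labelled DMSO given above. The groups did not overlap, and the log2 difference was 0.25 (SE 0.06, limma adjusted p = 0.0284). Psma5 had 76.7, 72.5 and 71.4 FPKM, beside 58.7 to 62.7, a log2 difference of 0.27 (SE 0.07, limma adjusted p = 0.0312). Psma6 had 104.3, 103.5 and 105.1 FPKM, all above KO-labelled DMSO, but its log2 difference of 0.18 did not pass (limma adjusted p = 0.181). In the α ring as a whole, 2 of 7 rose, with a median of 0.17, and in the β ring 0 of 7 passed (limma), with a median of 0.06 and 1 unadjusted p under 0.05.

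Among regulatory subunits, 2 of 17 rose, both non-ATPase. Psmd7 had 105.1, 99.3 and 95.9 FPKM in KO-labelled SR9009, beside 79.5 to 86.0 in KO-labelled DMSO, a log2 difference of 0.26 (SE 0.06, limma adjusted p = 0.0233). Psmd12, which holds the lid together (chromosome 11, 107340798 to 107365676), had 54.4, 53.1 and 53.9 FPKM in KO-labelled DMSO and 65.0, 61.5 and 59.8 in KO-labelled SR9009, and 57.8, 57.0 and 56.6 in control DMSO. The SR9009 libraries were above both DMSO groups, and the log2 difference within KO-labelled cells was 0.20 (SE 0.06, limma adjusted p = 0.0406). Psmc6 had 42.8, 39.6 and 40.6 FPKM, above all KO-labelled DMSO libraries, and just missed the threshold (log2 difference 0.21, limma adjusted p = 0.0519). Psmd3 and Psmc4 had estimates below 0, -0.18 and -0.07, without passing.

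Over all genes tested, 596 were higher with all 12 libraries, and 313 to 474 with 1 library of the groups compared left out. The count of 4 members fell as well. It was 0 without KO-labelled DMSO library 1 or 3 or KO-labelled SR9009 library 1 or 2. It was 1 without KO-labelled DMSO library 2 and 2 without KO-labelled SR9009 library 3. The count was 1 when libraries were scaled to a common median, and 1 without the 2 shallowest libraries. It was 0 without the filter on low values, and 0 with limma without trend and robust variance.

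Whether SR9009 acted differently in the 2 genotypes was tested directly, as the difference of the SR9009 effects. No member passed (limma), and 4 had an unadjusted p under 0.05, where 0.0268% of all genes, 3 in number, passed and 7.02% had an unadjusted p under 0.05. Estimates were positive for 23 of 34 members, against 55.6% of all genes. The highest estimates were those of Psmc6, 0.24 (95% interval 0.05 to 0.43, limma adjusted p = 0.614), Psma5, 0.24 (0.02 to 0.46), Psma6, 0.24 (0.00 to 0.48), and Psma1, 0.22 (0.02 to 0.42). A difference between the genotypes was therefore not shown for any subunit, although subunits passed in one genotype and not in the other.

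Under SR9009, KO-labelled and control cells did not differ past the threshold in any subunit. Of all genes, 20.4% passed, 12.9% higher and 7.43% lower. The median log2 difference of the members was -0.06, against 0.06 for all genes, with 23 of 34 estimates negative against 40.1% of all genes. An unadjusted p under 0.05 was reached by 5 members, 4 of them lower (limma), against 33.3% of all genes, and the groups of 4 did not overlap, against 34.9% of all genes. Psma1 had a log2 difference of 0.01 (95% interval -0.14 to 0.15), and those of Psma5, Psma6, Psmc6 and Psmd12 were between -0.02 and 0.02. Psmd11 lay highest, with 69.4, 82.1 and 79.1 FPKM in control SR9009 and 95.8, 110.1 and 91.5 in KO-labelled SR9009, a separation that did not pass (log2 difference 0.36, 95% interval 0.07 to 0.66, limma adjusted p = 0.0828). This comparison shares no library with KO-labelled against control in DMSO. Without control SR9009 library 2, 3 members were lower past the threshold, and 1 was lower without control SR9009 library 1, the shallowest, or without KO-labelled SR9009 library 1. The direction of calls depended on the scaling, with 2 members higher and 0 lower after rescaling to TPM, and 0 higher and 2 lower after median scaling.

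Replicates of the subunits lay close together. The SD within groups, on the log2 scale, had a median of 0.0922 over the members, against 0.133 for all genes tested and 0.105 for those with a mean of at least 10 FPKM. It was lowest for Psmc1 (0.0464) and Psmd2 (0.0472), and highest for Psmd11 (0.193), Psmd5 (0.181) and Psmd3 (0.163). Psma3, Psmc3 and Psmd13 each overlap a gene on the other strand, and no source used here gives the strand setting, so reads of the overlapping stretch cannot be assigned.

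Other genes of the pathway are given by list, against the 11.7% of all genes that rose and the 8.32% that fell in KO-labelled DMSO. In KO-labelled DMSO, Pomp, the factor that matures the core particle, had 122.5, 120.6 and 122.8 FPKM against 145.1, 151.6 and 134.2 in control DMSO. These groups did not overlap, and Pomp fell (log2 difference -0.23, limma adjusted p = 0.0391), the only one of 5 assembly factors to pass. The call was lost in 5 of 6 removals of 1 library, the exception being control DMSO library 3. Of 7 proteins bound to the regulatory particle, 2 fell. Shfm1, a small subunit of the lid, had 58.1, 67.9 and 64.8 FPKM against 81.7, 91.9 and 82.8 (log2 difference -0.42, limma adjusted p = 0.0305), a call kept only without KO-labelled DMSO library 2 among the 6 removals. The deubiquitinase Usp14, which binds the particle reversibly, had 36.9, 33.6 and 36.1 FPKM against 43.8, 42.6 and 41.4, and fell by 0.26 on the log2 scale (limma adjusted p = 0.00853), a call kept in all 6 removals. With SR9009 Usp14 rose in KO-labelled cells to 42.6, 43.6 and 41.4 FPKM (log2 difference 0.25, limma adjusted p = 0.0164), and had 42.3, 45.5 and 40.8 in control SR9009. That rise was lost without KO-labelled DMSO library 2 or KO-labelled SR9009 library 1 or 2.

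Genes that deliver substrates were listed as well. Of 11 ubiquitin shuttle and unfoldase genes, 3 rose in KO-labelled DMSO and none fell, where 11.7% of all genes rose and 8.32% fell. Among those that rose were Ubqln2, from 13.2 to 17.7 FPKM (log2 difference 0.40), and Vcp, the unfoldase, from 147.4 to 162.4. Of 6 ubiquitin genes and E1 enzymes, a separate list, 2 rose and none fell. Among these was Uba1, the main ubiquitin-activating enzyme (log2 difference 0.19, limma adjusted p = 0.022). Of 5 activators and inhibitors, Psme3, a nuclear activator of the core, rose from 45.3 to 51.2 FPKM. Psme1 and Psme2 lay the other way, from 42.4 to 35.5 and from 48.8 to 37.9 FPKM, in groups that did not overlap, but neither passed. Under SR9009, Psme1 was lower in KO-labelled cells (log2 difference -0.35, limma adjusted p = 0.0294), a call lost in 4 of 6 removals of 1 library. The calls of Psme3 and Vcp were lost in all 6 removals of 1 library, that of Uba1 without control DMSO library 2 or KO-labelled DMSO library 1 or 2, and that of Ubqln2 in none.

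Among 11 tested genes that control proteasome transcription, 2 fell in KO-labelled DMSO, against 8.32% of all genes. Maff and Mafk encode small Maf proteins, partners of NRF1 and NRF2. Maff had 58.3, 51.5 and 49.6 FPKM in control DMSO and 31.1, 25.4 and 27.2 in KO-labelled DMSO (log2 difference -0.91, limma adjusted p = 5.54e-06), and Mafk went from 55.1 to 45.7 FPKM (-0.26, adjusted p = 0.00377). Nfe2l1 itself had 28.9, 23.5 and 26.5 FPKM against 39.8, 37.2 and 25.6. These overlapped, with KO-labelled library 3 inside the control range, and did not pass (log2 difference 0.35, limma adjusted p = 0.107). Nfe2l2, encoding NRF2, had 57.5 FPKM against 60.4 (limma adjusted p = 0.446). Maff also rose with SR9009 in both genotypes, by 0.33 in control and 0.36 in KO-labelled cells on the log2 scale, calls lost in 4 and 2 of 6 removals of 1 library.

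Inducible subunits replace the catalytic ones in the immunoproteasome. Of their 4 rows, 2 were lower in KO-labelled cells under SR9009, where 7.43% of all genes were lower. Psmb8 had 11.3, 11.9 and 14.0 FPKM in control SR9009 and 9.18, 9.09 and 8.18 in KO-labelled SR9009. The groups did not overlap, and Psmb8 was lower in KO-labelled cells (log2 difference -0.44, limma adjusted p = 0.00792). Psmb10 had 31.9, 31.2 and 34.2 FPKM against 28.4, 26.9 and 26.9, and was also lower (-0.23, adjusted p = 0.00981). In DMSO neither passed, although the groups of both were separated in the same direction, with Psmb8 at 12.8, 13.2 and 12.2 FPKM against 8.9, 10.8 and 11.5 (log2 difference -0.28, limma adjusted p = 0.0784) and Psmb10 at a log2 difference of -0.13 (adjusted p = 0.127). The difference of the SR9009 effects passed for neither (adjusted p = 0.863 and 0.847, limma). Psmb9 was split between 2 overlapping gene models, with 0.0345 to 3.23 and 0.177 to 3.02 FPKM, and no direction is given for it. Immunoproteasome subunits are abundant in leukocytes, and Kupffer cell markers summed to 49.6 to 52.8 FPKM in control SR9009 and 44.3 to 46.8 in KO-labelled SR9009. Of 8 tested, Cd68 was higher in KO-labelled cells (from 19.0 to 28.0 FPKM), Marco was lower (from 9.4 to 1.85), and 6 did not pass. Without Cd68, left out because it moved the other way, the sum was 31.5 to 32.3 FPKM in control SR9009. In KO-labelled SR9009 the sum without Cd68 was 14.4 to 19.6 FPKM. Leaving out a marker because it rose widens this gap by construction, and Marco is still in the sum. The part of these cells in the result was not tested.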

How the data were processed

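Gene levels were measured by RNA-seq of polyadenylated, ribosome-depleted RNA in 12 libraries, per the labels' protocols. The authors processed the reads with HISAT2 and StringTie on mm9 (per the submitters' processing notes). No source used here gives versions, annotation or strand setting. The deposited values were taken as FPKM, since the file header names no unit, library sums differ, and low values fall on steps that scale with gene length. Read totals are unknown, and relative depth comes from those steps.

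Values were used as log2(FPKM + 1), which understates differences of low genes. The 11213 genes that reached 1 FPKM in 3 or more libraries were fitted with a mean per group over all 12 libraries (limma 3.58.1 in R 4.3.3, with a variance trend and robust estimation). Adjustment over all of them used the Benjamini-Hochberg method at 0.05. The fit was tested on simulated data. Members and lists were chosen with earlier results of these data known. Values of every library are given for up to 5 members per direction and comparison with the smallest p among those that passed, for Psmb5, Psmb6 and Psmb7, and for the highest and lowest member of each class, some by range; of other lists, up to 4 genes per direction, and Psmb8, Psmb9, Psmb10, Pomp, Nfe2l1, Nfe2l2, Nr1d1 and Nr1d2. Some genes of these lists are not reported here. Other members were named after their values were seen. Alternatives were TPM, quantile and median scaling, other pseudocounts and filters, a replicate block, other fits and leaving libraries out. No labels name a batch. At most 0.0535% of genes had equal values between any 2 libraries.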

Additional observations from a re-analysis of the deposited data

How the results depend on the processing

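The median of the members turned from 0.04 to -0.01 for SR9009 in control cells without control SR9009 library 3. For members lower in KO-labelled DMSO, 5 as reported, the count was 1 with values rescaled to TPM, without the filter, without trend and robust variance, or without the 2 shallowest libraries, 9 with only the groups compared, and 0 to 3 leaving out 1 library. For members higher with SR9009 in KO-labelled cells, 4 as reported, it was 1 with median scaling or without the 2 shallowest libraries, 0 without the filter or without trend and robust variance, and 0 to 2 leaving out 1 library. Under SR9009, KO-labelled against control gave 0 as reported, with 2 higher (Psmd11, Psmd8) with TPM, 1 higher (Psmd11) with only the groups compared, 1 lower (Psmb3) with quantile scaling, 2 lower (Psmb3, Psmc5) with median scaling, and 0 to 3 lower leaving out 1 library. Lower members with SR9009 in control numbered 0 to 1 leaving out 1 library. The median log2 difference in DMSO was -0.09 with TPM and -0.18 with median scaling. Of the 5 members lower in DMSO, Psmc6 passed in 13 of 17 alternatives (adjusted p 0.0126 to 0.0578, limma) and Psma5 in 3 of 17. Apart from what each setting removes, the cause was not tested.

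With the replicate number as a block, 2 members were lower in KO-labelled DMSO and 2 were higher with SR9009 in KO-labelled cells. The numbers were not taken to pair the libraries: deviations of same-numbered libraries correlated at -0.11 to 0.12, 1 of 18 such pairs exceeded 0.1, and the own number correlated best in 13 of 36 cases.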

Other observations

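Transcripts of known NRF2 targets, genes of the antioxidant response, were also measured. With SR9009, 5 of 12 rose in control cells and 8 of 12 in KO-labelled cells, and none fell (limma), where 3.69% and 5.32% of all genes rose. The count in control cells is limited by 1 library for Srxn1, which had 409.5, 2105.0 and 1950.7 FPKM in control SR9009. Its control DMSO values were 1507.6, 1539.9 and 1455.6 FPKM, and the low value is that of the shallowest library. The cause of the low Srxn1 value was not tested. Hmox1, the inducible heme oxygenase, had 111.4, 94.0 and 90.3 FPKM in control DMSO and 151.0, 122.5 and 154.7 in control SR9009 (log2 difference 0.53, adjusted p = 0.0106, and 0.0502 without control DMSO library 3). In KO-labelled cells it had 56.6, 48.9 and 54.2 FPKM in DMSO and 135.5, 126.9 and 112.1 with SR9009 (log2 difference 1.21, adjusted p = 3.01e-05). Osgin1 rose by 1.60 and 1.55 on the log2 scale. The difference between the genotypes passed for none of the 12 (4 with an unadjusted p under 0.05, limma). In KO-labelled against control DMSO, 3 of the 12 rose and 4 fell, where 11.7% of all genes rose and 8.32% fell. Among them were Sqstm1, a ubiquitin receptor of autophagy, from 1136.6 to 1495.8 FPKM, and Slc7a11, the cystine transporter, from 18.4 to 9.11 FPKM.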
